A study of Homo sapiens with 12 samples.

Results

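The genes described here are 7 regulators of the epithelial state: the Grainyhead-like transcription factors GRHL1, GRHL2 and GRHL3, the OVO-like zinc-finger factors OVOL1 and OVOL2, and the epithelial splicing regulators ESRP1 and ESRP2. They were chosen by family name, and each is read from the probe sets that carry its symbol alone. This left 6 of the 7 genes, of 19775 genes with such a probe set on the array. The only ESRP2 probe set also carries the name of a microRNA gene, so ESRP2 has no value here. All 6 passed the filter on dim genes and are among the 16099 genes tested. Of the measured values, the mean over the 12 arrays entered the choice, since it picks the main probe set where a gene has 2. The list was drawn up when the rise of GRHL3 and OVOL1 in PMA-treated BxPC-3 cells was already known. For these 2 genes, every comparison that holds the treated BxPC-3 arrays is therefore given as a description without a test, and they are left out of the counts of called genes there.

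The study compared BxPC-3, a pancreatic cancer line from a primary tumour, with AsPC-1, a pancreatic cancer line from ascites. Cells of each line spent a night in low serum (2.5% foetal calf serum). The treated cultures then received PMA, a phorbol ester dissolved in DMSO (0.1%), for 4 h at 1 µM. PMA activates protein kinase C, and the series uses it as an inducer of invasion. The 4 groups held 3 Affymetrix arrays each, 1 per cell passage: passages 8, 10 and 12 of AsPC-1 and 7, 9 and 11 of BxPC-3, each passage giving a treated and an untreated array. The labels do not say whether the untreated cultures received DMSO, and they name no genetic change in any group. Each origin of tumour cells is represented by a single line, so a difference between the lines is a difference between these cultures. All p-values measure the passage-to-passage spread, pooled over the 4 groups.

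Grainyhead-like factors bind DNA at genes of cell junctions and of the epithelial barrier. GRHL2 maintains E-cadherin and claudin expression and opposes the mesenchymal repressor ZEB1, and GRHL1 and GRHL3 act in the later differentiation of surface epithelia. OVOL factors are repressors that hold back drivers of the epithelial-mesenchymal transition, ZEB1 among them. ESRP proteins bind RNA and favour the epithelial choice of exons in transcripts such as FGFR2, CD44 and CTNND1.

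The arrays carried a signal on a linear scale, with the trimmed mean set to about the same value on every array (100.01 to 100.02). The markers of pancreatic ductal epithelium stood above the 40th percentile of their array for 8 of 8 genes on all 12 arrays. Of the islet markers, 0 of 3 did so on all arrays of any group, while 1 of 2 acinar, 1 to 2 of 3 leukocyte and 1 to 2 of 3 endothelial markers did so in each group. In no group did PTPRC (leukocytes), CDH5 (endothelium) or CPA1 (acinar cells) stand above it on all 3 arrays. Fibroblast markers did so for 3 of 6 genes in untreated and 1 of 6 in treated AsPC-1, and for 4 of 6 in both BxPC-3 groups. COL1A2 and PDGFRB did so in no group. The summed signal of the fibroblast markers was 1353 to 3426 in AsPC-1 and 145 to 232 in BxPC-3. The sum and the number of markers thus moved with the line in opposite directions, and their part in the differences between lines was not tested. The array of AsPC-1 PMA replicate 1 stood apart, with a mean correlation across genes of 0.921 with its group, against 0.964 with the untreated array of its passage. For ACTB, control probe sets at the 3' end gave 2.56 to 4.14 times the signal of those at the 5' end on untreated BxPC-3 arrays and 1.84 to 2.02 times after PMA. This ratio, a sign of RNA quality, moved with treatment for ACTB. For GAPDH it overlapped, at 1.04 to 1.12 on untreated BxPC-3 arrays and 1.00 to 1.07 after PMA. The part of RNA quality in the BxPC-3 changes was not tested. In RNA from whole cultures, less transcript per cell and fewer cells that hold it cannot be told apart.

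In BxPC-3 cells after PMA, signals within each transcription factor family went in opposite directions. GRHL3, GRHL1 and OVOL1 were higher on every treated array than on every untreated one, and GRHL2, OVOL2 and ESRP1 were lower on every treated array. Apart from GRHL3 and OVOL1, limma called 4 of 4 genes, GRHL1 higher and the other 3 lower. Among all genes tested, 5.82% were called in this comparison, 2.52% higher and 3.30% lower, and groups did not overlap in 38.9%, 17.0% higher and 21.9% lower. Since the list was made with results of this comparison in view, nothing is read from that count. The median log2 change was 0.47 over the 6 genes, GRHL3 and OVOL1 included, and 0.00023 over all genes. That median lies between 3 genes that rose and 3 that fell, and is likewise only a description.

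**Figure D1:**
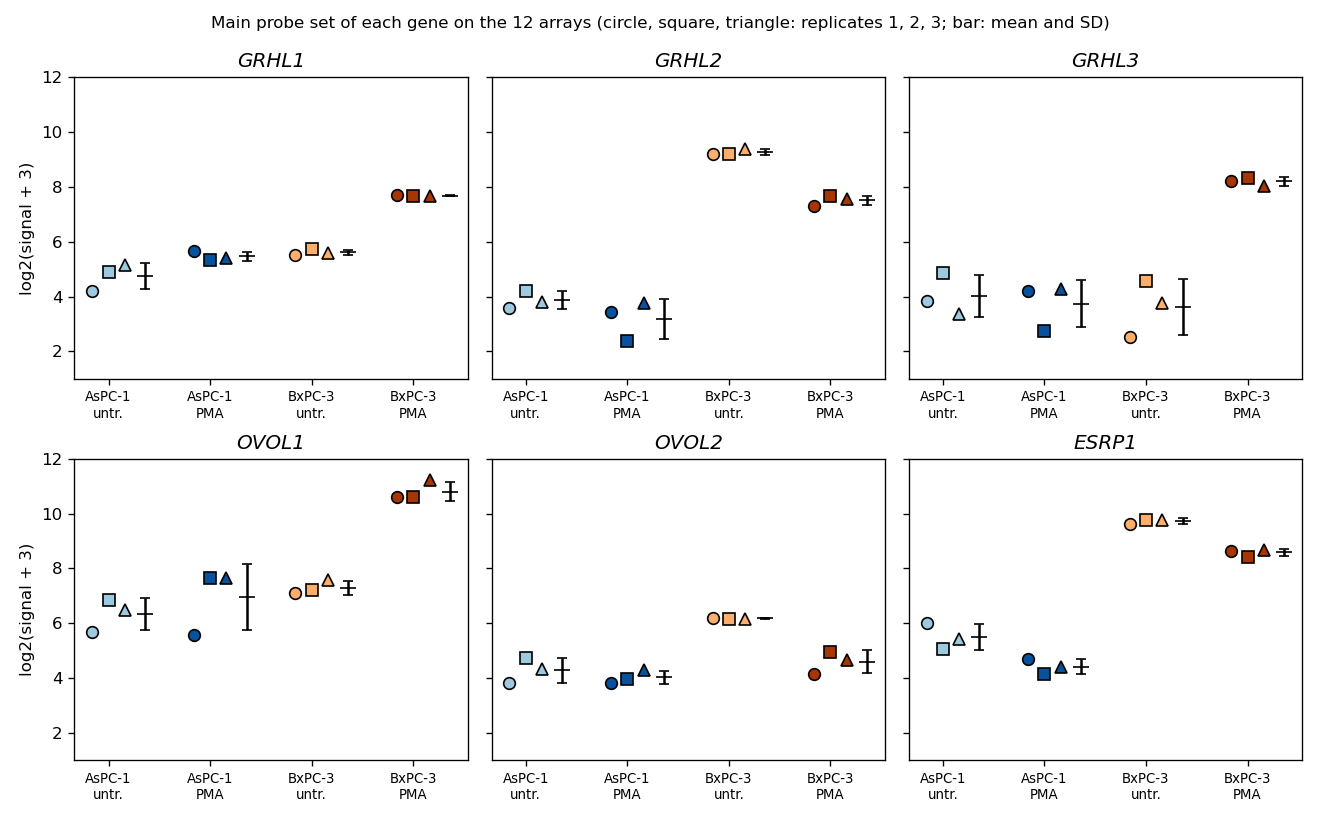
Signal of the main probe set of each gene, as log2(signal + 3), on the 12 arrays in 4 groups of 3. Circles, squares and triangles are replicates 1, 2 and 3, and the bar beside them is the mean with its SD. In BxPC-3 cells GRHL1, GRHL3 and OVOL1 are higher after PMA, and GRHL2, OVOL2 and ESRP1 are lower. GRHL2 and ESRP1 stand far higher in BxPC-3 than in AsPC-1.

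GRHL3, a factor of epidermal barrier formation, was dim in 3 of the 4 groups. Its signal was 2.77, 20.8 and 10.5 on the untreated BxPC-3 arrays and 295.9, 321 and 257 after PMA. The AsPC-1 arrays had 11.4, 26.2 and 7.36 before and 15.4, 3.69 and 16.5 after PMA. The treated BxPC-3 arrays stood above the other 9 arrays, while the other 3 groups overlapped. The log2 change in BxPC-3 was 4.58 ± 0.54 (SE, n = 3 a group), and 5.70, 3.77 and 4.27 by passage. Because 1 untreated BxPC-3 array lay at 2.77, the size of this change depends on the pseudocount and on that array: it was 4.03 without untreated BxPC-3 replicate 1 and between 3.54 and 5.05 over all alternatives. In AsPC-1 the log2 change was -0.29 ± 0.54 (limma adjusted p = 0.849), with a 95% interval from -1.45 to 0.88. GRHL3 lay above the 40th percentile on 9 of 12 arrays, among them the 3 treated BxPC-3 arrays.

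GRHL1, a relative of GRHL3 that acts on desmosome genes in the epidermis, rose in BxPC-3, with closely matched arrays. Its signal was 43.2, 49.6 and 44.7 untreated and 203, 201 and 202 after PMA. The log2 change was 2.07 ± 0.26 (limma adjusted p = 0.00057), and 2.16, 1.96 and 2.10 by passage. In AsPC-1 the signal was 15.4, 26.9 and 32.4 untreated and 47.7, 37.6 and 39.3 after PMA. These groups did not overlap either, and the log2 change of 0.72 ± 0.26 did not pass the test (limma adjusted p = 0.171, interval from 0.17 to 1.27). The largest of the 3 AsPC-1 changes by passage was 1.46 in passage 8, against 0.44 and 0.26 in the other 2. Passage 8 had the lowest untreated signal, 15.4, and the highest treated signal, 47.7, the latter on the array that stood apart. Treated BxPC-3 cells held the highest level of GRHL1, and untreated AsPC-1 cells the lowest. Untreated BxPC-3 and treated AsPC-1 cells overlapped between them.

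The start regions of GRHL1 and GRHL3 are shown because both genes were higher on every treated BxPC-3 array than on every untreated one. They are taken from RefSeq on GRCh38.p14, each covering 250 bases before and 50 after a start site, on the plus strand, and 2 of the 7 genes had an entry in the table used. GRHL3 has a pair of start regions, at chr1:24319107-24319406 and chr1:24322790-24323089, and GRHL1 has the region chr2:9951443-9951742. Capitals mark letters that match a searched motif on either strand.
GRHL3 first start: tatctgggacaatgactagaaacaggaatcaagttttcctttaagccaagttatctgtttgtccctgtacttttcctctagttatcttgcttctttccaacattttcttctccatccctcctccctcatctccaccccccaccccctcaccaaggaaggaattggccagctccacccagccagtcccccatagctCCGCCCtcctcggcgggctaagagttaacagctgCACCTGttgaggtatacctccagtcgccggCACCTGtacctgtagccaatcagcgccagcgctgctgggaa
GRHL3 second start: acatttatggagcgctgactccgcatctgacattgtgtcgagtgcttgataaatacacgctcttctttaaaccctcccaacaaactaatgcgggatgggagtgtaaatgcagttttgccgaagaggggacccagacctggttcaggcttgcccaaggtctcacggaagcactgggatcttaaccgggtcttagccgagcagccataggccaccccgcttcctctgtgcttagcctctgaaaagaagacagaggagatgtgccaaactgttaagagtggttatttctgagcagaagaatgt
GRHL1: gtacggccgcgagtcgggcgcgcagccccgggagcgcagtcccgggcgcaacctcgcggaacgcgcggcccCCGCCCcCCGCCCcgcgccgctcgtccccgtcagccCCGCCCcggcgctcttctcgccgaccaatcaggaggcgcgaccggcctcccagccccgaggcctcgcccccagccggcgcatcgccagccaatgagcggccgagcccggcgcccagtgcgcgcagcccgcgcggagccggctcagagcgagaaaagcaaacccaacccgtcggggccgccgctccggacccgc

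The motifs searched on both strands were TGANTCA (the AP-1 site, known as the phorbol ester response element), TGACGTCA (CRE), AACCGGTT and its looser form AACNGGTT, which includes it (GRHL), CCGTTA (OVOL), CACCTG (the E-box read by ZEB and SNAI factors) and GGGCGG (SP1). The first GRHL3 region held 2 matches of CACCTG, a motif found in 20.6% of the 35116 promoters of this length. It also held 1 match of GGGCGG, found in 45.0% of promoters, and the GRHL1 region held 3. The second GRHL3 region matched none of the 7 motifs. None of the 3 regions held TGANTCA, which 7.71% of promoters hold, or AACNGGTT, which 1.73% hold. This says only that these letters are not in these windows.

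GRHL2, the family member that sustains E-cadherin and tight junctions in simple epithelia, went the other way in BxPC-3. Its signal was 581, 588 and 670 untreated and 156, 199 and 183 after PMA. Each treated array lay below each untreated one, with a log2 change of -1.76 ± 0.32 (limma adjusted p = 0.00704). By passage the changes were -1.87, -1.55 and -1.86. In AsPC-1 the gene was near the bottom of the signal range, at 9.07, 15.6 and 10.9 untreated and 7.70, 2.16 and 10.6 after PMA. Of these 6 arrays, 3 lay above the 40th percentile of their array (a signal of 8.18 to 10.2), and the groups overlapped. The log2 change there was -0.68 ± 0.32 (limma adjusted p = 0.312, interval from -1.38 to 0.01), with 1 passage at -1.85 and the others at -0.17 and -0.03.

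OVOL1, the OVO-like factor linked to epidermal differentiation, was bright after PMA in BxPC-3. Its signal was 135, 145 and 188 untreated and 1564, 1537 and 2379 after PMA. No treated array came near an untreated one, and the log2 change was 3.51 ± 0.47 (SE), with 3.51, 3.38 and 3.64 by passage. In AsPC-1 the signal was 48.4, 111 and 86.4 untreated and 44.6, 199 and 197 after PMA. Treated replicates 2 and 3 were above all untreated arrays, and replicate 1, the array that stood apart, was below them. The log2 change in AsPC-1 was 0.62 ± 0.47 (limma adjusted p = 0.557), and 1.32 without that array (adjusted p = 0.00565). By passage it was -0.11, 0.82 and 1.16. Treated BxPC-3 cells held the highest level of OVOL1, and the other 3 groups followed in the order untreated BxPC-3, treated AsPC-1 and untreated AsPC-1, with treated AsPC-1 overlapping both neighbours.

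OVOL2, a repressor of ZEB1 in epithelial cells, fell in BxPC-3. Its signal was 70.3, 68.8 and 69.2 untreated and 14.9, 28.3 and 22.5 after PMA, a log2 change of -1.58 ± 0.31 (limma adjusted p = 0.00972). By passage the changes were -2.04, -1.20 and -1.50. The call was at adjusted p = 0.0507 without BxPC-3 PMA replicate 1. In AsPC-1 the signal was 11.1, 23.6 and 17.1 untreated and 11.2, 12.7 and 16.4 after PMA, with overlapping groups and a log2 change of -0.27 ± 0.31 (adjusted p = 0.727, interval from -0.93 to 0.40). After PMA the BxPC-3 arrays overlapped with both AsPC-1 groups, so only untreated BxPC-3 stood apart. The main OVOL2 probe set carries the mark s, which means that related transcripts can also be read by it.

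ESRP1, the RNA-binding protein that promotes epithelial exon choice, was lower after PMA in both lines on its main probe set. In BxPC-3 the signal was 778, 877 and 876 untreated and 399.8, 342 and 407 after PMA, a log2 change of -1.14 ± 0.25 (limma adjusted p = 0.0163). The AsPC-1 arrays had 61.8, 30.6 and 40.1 before and 22.7, 14.8 and 18.4 after treatment, a log2 change of -1.09 ± 0.25 (limma adjusted p = 0.0417). Every passage showed a fall, of -0.95, -1.35 and -1.10 in BxPC-3 and -1.34, -0.92 and -1.01 in AsPC-1. None of the 4 groups overlapped, in the order untreated BxPC-3, treated BxPC-3, untreated AsPC-1 and treated AsPC-1. Both calls are close to the threshold. In BxPC-3 the adjusted p was 0.0563 to 0.0829 without any 1 of the 6 BxPC-3 arrays. In AsPC-1 the call was lost in 10 of the 12 fits that left out 1 array, at adjusted p between 0.0621 and 0.185, and kept without AsPC-1 untreated replicate 2 or AsPC-1 PMA replicate 1.

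In AsPC-1 cells, ESRP1 was the 1 called gene of the 6, against 1.96% of all genes called, 1.24% higher and 0.721% lower. Groups did not overlap for 2 of the 6, GRHL1 and ESRP1, against 14.4% of all genes, 6.06% higher and 8.37% lower. The median log2 change was -0.28 over the 6 genes and -0.10 over all genes. Without AsPC-1 PMA replicate 1, OVOL1 was called besides ESRP1. That fit also called far more genes in all, 3147 of 16099, 981 higher and 2166 lower.

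**Figure D2:**
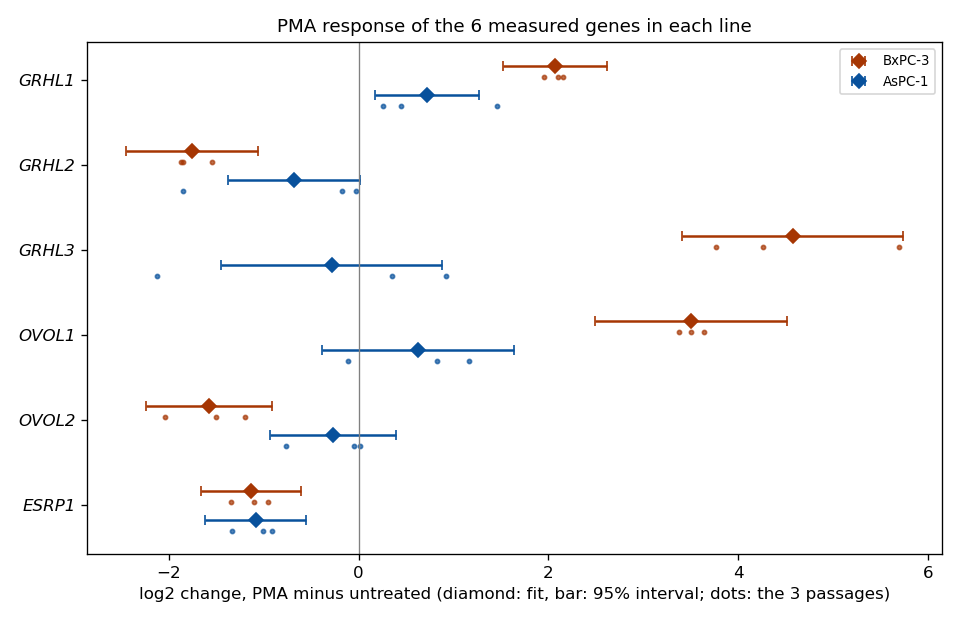
Log2 change after PMA of the 6 measured genes in BxPC-3 and AsPC-1. Diamonds are the fitted changes with their 95% intervals, and small dots are the 3 passages of each line. In BxPC-3 all 3 passages of each gene lie on 1 side of 0. In AsPC-1 the passages of GRHL1, GRHL2 and ESRP1 do, and those of GRHL3, OVOL1 and OVOL2 lie on both sides.

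The PMA response in BxPC-3 was set against that in AsPC-1 as a log2 difference. For GRHL3 the difference was 4.86 ± 0.76 and for OVOL1 2.88 ± 0.66, or 2.19 for OVOL1 without AsPC-1 PMA replicate 1, given as descriptions. Of the other 4 genes limma called 0, where 0.491% of all genes were called, 0.317% higher and 0.174% lower. At an unadjusted p under 0.05 there were 3 (GRHL1, GRHL2 and OVOL2). The share of all genes at that looser threshold was not counted, so nothing is read from the 3. The differences of GRHL1 (1.35 ± 0.36, adjusted p = 0.185), OVOL2 (-1.31 ± 0.44, adjusted p = 0.352) and GRHL2 (-1.07 ± 0.46, adjusted p = 0.515) did not pass limma's test. GRHL1 passed without AsPC-1 untreated replicate 1 (1.63, adjusted p = 0.0424) or AsPC-1 PMA replicate 1 (1.45, adjusted p = 0.0362). For ESRP1 the difference was -0.05 ± 0.35, with an interval from -0.80 to 0.70 (adjusted p = 0.990). The calls of GRHL1, GRHL2 and OVOL2 in BxPC-3 alone are thus not shown to differ between the lines.

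GRHL1, OVOL1, OVOL2 and ESRP1 each have a second probe set, dimmer on average over the 12 arrays. The second OVOL1 probe set averaged 5.11 on the log2 scale against 7.85 for the main one. It read 5.54, 24.7 and 19.0 in untreated BxPC-3 cells and 134, 130 and 137 after PMA, a log2 change of 2.98 ± 0.43, in the same direction as the main one. The second GRHL1 probe set read 13.1, 12.2 and 8.73 untreated and 25.0, 77.9 and 36.5 after PMA in BxPC-3, also without overlap. Its change of 1.65 ± 0.52 did not pass in a limma fit of 31252 probe sets (adjusted p = 0.0867). The second OVOL2 probe set had 23.5, 14.7 and 41.6 untreated and 6.09, 8.03 and 7.12 after PMA (-1.45 ± 0.40, adjusted p = 0.0537). The second ESRP1 probe set had 521, 677 and 541 untreated and 251, 213 and 236 after PMA (-1.30 ± 0.54, adjusted p = 0.195). All 4 therefore pointed the same way as the main probe sets in BxPC-3, without overlap between the groups, and those of GRHL1, OVOL2 and ESRP1 missed the threshold in that fit.

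In AsPC-1 the probe sets of 2 genes disagreed. The second ESRP1 probe set read 46.1, 8.22 and 3.30 untreated and 8.96, 18.2 and 10.97 after PMA, with overlapping groups and a log2 change of 0.0089 ± 0.54 (limma adjusted p = 0.996). The fall of ESRP1 in AsPC-1 thus rests on the main probe set, and 2 of these 3 untreated values did not lie above the 40th percentile of their array. The second GRHL1 probe set changed by -0.58 ± 0.52 (adjusted p = 0.653), opposite in sign to the main one. For OVOL1 (0.10 ± 0.43) and OVOL2 (-0.97 ± 0.40, adjusted p = 0.260) the signs matched the main probe sets.

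**Figure D3:**
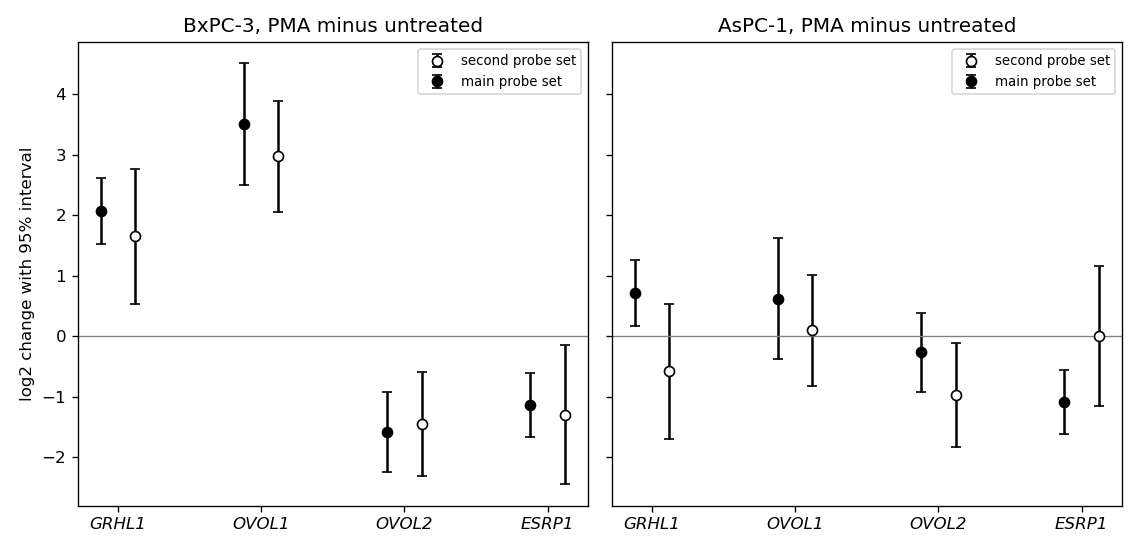
Log2 change after PMA, with its 95% interval, for the main (filled) and the second (open) probe set of GRHL1, OVOL1, OVOL2 and ESRP1, in BxPC-3 on the left and AsPC-1 on the right. In BxPC-3 both probe sets of each gene lie on the same side of 0. In AsPC-1 those of GRHL1 lie on opposite sides, and the second probe set of ESRP1 lies at 0.0089.

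Before treatment, the lines differed most in GRHL2 and ESRP1. GRHL2 averaged 613 ± 49.7 in untreated BxPC-3 and 11.9 ± 3.35 in untreated AsPC-1 cells (SD, n = 3), a log2 difference of 5.39 ± 0.32 (limma adjusted p = 2.96e-08). ESRP1 averaged 844 ± 57.3 against 44.2 ± 16.01, a difference of 4.22 ± 0.25 (adjusted p = 2.3e-08). OVOL2 was higher in BxPC-3 by 1.88 ± 0.31 (adjusted p = 0.00033) and GRHL1 by 0.86 ± 0.26 (adjusted p = 0.0193). The GRHL1 call was lost without AsPC-1 untreated replicate 1 (0.58, adjusted p = 0.0610) and without BxPC-3 untreated replicate 2 (0.80, adjusted p = 0.0684). Its second probe set had the opposite sign (-0.30 ± 0.52, adjusted p = 0.719). OVOL1 differed by 0.96 ± 0.47 (adjusted p = 0.138) and GRHL3 by -0.41 ± 0.54 (adjusted p = 0.609). For OVOL1 the adjusted p was 0.00892 in a fit lacking AsPC-1 PMA replicate 1 and 0.0325 when the untreated arrays alone were fitted, and its second probe set differed by -0.46 ± 0.43. In all, 4 of the 6 genes were called, each higher in BxPC-3, where 32.4% of all genes were called, 16.8% higher and 15.6% lower. Groups did not overlap for 5 of the 6, all but GRHL3 and each higher in BxPC-3, against 50.6% of all genes, 25.1% higher and 25.6% lower. The median difference was 1.42 over the 6 genes and -0.08 over all genes.

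After PMA, GRHL2 (4.32 ± 0.32), ESRP1 (4.17 ± 0.25) and GRHL1 (2.21 ± 0.26) were higher in BxPC-3, with limma adjusted p at most 1.58e-05. These are 3 of the 4 genes tested here, against 33.5% of all genes called, 18.3% higher and 15.2% lower. The differences of GRHL3 (4.45 ± 0.54) and OVOL1 (3.85 ± 0.47) are descriptions. Groups did not overlap for 3 of the 4 tested genes, GRHL2, ESRP1 and GRHL1, against 43.4% of all genes, 22.9% higher and 20.5% lower. For GRHL3 and OVOL1 the groups did not overlap either, which is again a description. OVOL2 did not pass, with a difference of 0.57 ± 0.31 (adjusted p = 0.180, interval from -0.09 to 1.24). GRHL2 and ESRP1 thus stood higher in BxPC-3 before and after PMA. The change of a difference between lines is the same contrast as the difference of the PMA responses given above. Both comparisons between lines share arrays with the PMA comparisons.

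**Figure D4:**
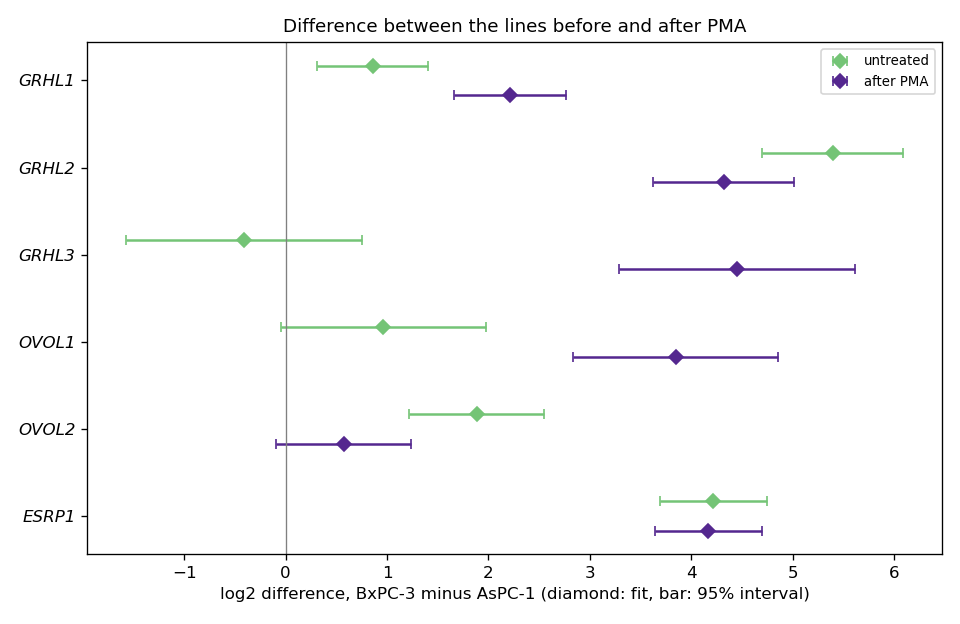
Log2 difference between the lines, BxPC-3 minus AsPC-1, for untreated cells and after PMA, with 95% intervals. GRHL2 and ESRP1 lie above 3 in both states. GRHL3 and OVOL1 lie near 0 and 1 when untreated and at 4.45 and 3.85 after PMA, and OVOL2 moves from 1.88 to 0.57.

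Genes that act with these regulators were taken from lists drawn up by function. The Grainyhead relatives TFCP2, TFCP2L1 and UBP1 were tested, and limma called 0 of the 3 after PMA in either line. At an unadjusted p under 0.05, 1 was lower in each line, and 0 were called with the replicate block. The share of all genes at an unadjusted p under 0.05 was not counted. Nothing is therefore read from counts at that threshold, in this list or in those below. In the fit without AsPC-1 PMA replicate 1, 1 was called lower in AsPC-1. Of 21 tested epithelial genes known as GRHL targets, 3 rose in BxPC-3: the claudins CLDN4 (4.32 ± 0.57) and CLDN3 (2.91 ± 0.51) and the membrane protease ST14 (1.94 ± 0.32). With the replicate block 5 rose, and without AsPC-1 PMA replicate 1, 5 rose and 1 fell. Of all 16099 genes, 670 were called higher and 975 lower in BxPC-3 with the block, and 917 and 1477 without that array. CLDN3 went from a mean signal of 5.62, with 1 of 3 arrays above the 40th percentile, to 55.7, on a probe set marked x, which can also read similar transcripts, and ST14 from 118 to 460. E-cadherin, CDH1, changed by 0.40 ± 0.24 (adjusted p = 0.384). The list's median was 0.22, against 0.00023 over all genes, of which 2.52% were called higher and 3.30% lower. In AsPC-1 limma called 0 of the 21, with 3 higher at an unadjusted p under 0.05, and with the replicate block 1 was lower. Without AsPC-1 PMA replicate 1, 3 were higher and 1 lower. Over all genes in AsPC-1, the block called 449 higher and 455 lower, and the fit without that array 981 and 2166. The difference of the PMA responses was called for ST14 (2.57 ± 0.45, adjusted p = 0.0262).

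Among the transcription factors of the epithelial-mesenchymal transition, 6 of 10 were tested. In BxPC-3 limma called 0 of them after PMA, with 1 higher at an unadjusted p under 0.05 and 0 with the replicate block. In AsPC-1, SNAI2 rose by 1.48 ± 0.35 (adjusted p = 0.0497), and ZEB1 changed by 1.07 ± 0.29 (adjusted p = 0.0814). Without AsPC-1 PMA replicate 1, 2 were higher, ZEB1 at adjusted p = 0.0065 among them, and 1 was lower. That fit called 981 of all 16099 genes higher and 2166 lower in AsPC-1. ZEB1, the repressor opposed by GRHL2 and OVOL2, averaged 472 ± 169 in untreated AsPC-1 and 6.997 ± 2.59 in untreated BxPC-3 cells, the reverse order of GRHL2 and ESRP1. It was lower in BxPC-3 (limma adjusted p = 8e-09), but 1 of the 3 untreated BxPC-3 arrays lay above the 40th percentile, so the size of the difference is uncertain. After PMA, with 3 of 3 above it, the log2 difference was -5.92 ± 0.29. FOXC2, another factor of this list, went the other way and was higher in BxPC-3, by 1.55 ± 0.43 untreated (adjusted p = 0.0127) and 3.53 ± 0.43 after PMA, with 2 and 1 of the 3 AsPC-1 arrays above that percentile. The list had 1 gene higher and 1 lower of the 6 between untreated lines, with a median of 0.0071. Of the 21 GRHL target genes, 10 were higher and 8 lower in untreated BxPC-3 than in untreated AsPC-1 cells, where 16.8% of all genes were higher and 15.6% lower. Among those higher were the membrane traffic genes MAL2 (mean signal 1537 against 5.72) and RAB25 (409 against 8.21), and CLDN3 was lower (5.62 against 146). In the dimmer line 1 of 3 arrays lay above the 40th percentile for each of these 3, so no log2 size is given.

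Splicing itself was not read here, since a gene has few probe sets and none was matched to exons. Of 14 tested transcripts known to be spliced under ESRP control, 4 were called in BxPC-3 after PMA, against 5.82% of all genes. LSR, a gene of tricellular junctions, rose by 1.72 ± 0.24 and RALGPS2 by 0.66 ± 0.15, while PLEKHA1 changed by -0.54 ± 0.13 and SLK by -0.46 (adjusted p = 0.0488), the last named after its value was seen. In AsPC-1 limma called 0 of the 14, with 3 higher and 1 lower at an unadjusted p under 0.05, and with the replicate block 1 was higher and 1 lower. Without AsPC-1 PMA replicate 1, 2 were higher and 1 lower. Over all 16099 genes in AsPC-1, the block called 449 higher and 455 lower, and the fit without that array 981 and 2166. Between untreated lines, 4 of the 14 were higher in BxPC-3 and 3 lower, with a median of 0.05. Among all genes, 16.8% were called higher there and 15.6% lower. FGFR2, whose epithelial isoform depends on ESRP proteins, averaged 249 ± 52.5 in untreated BxPC-3 and 8.91 ± 6.36 in untreated AsPC-1 cells. Its log2 difference was 4.57 ± 0.41 (limma adjusted p = 1.33e-06), with 2 of 3 untreated AsPC-1 arrays above the 40th percentile. RALGPS2 was lower in BxPC-3 by -2.03 ± 0.15 (adjusted p = 2.02e-07), and LSR was higher by 0.998 ± 0.24 (adjusted p = 0.00545). Of 14 other splicing regulators, PTBP2, a neural relative of the polypyrimidine tract protein, fell in BxPC-3 by 1.01 on the log2 scale (adjusted p = 0.0442), and with the replicate block 2 rose and 1 fell. Without AsPC-1 PMA replicate 1, 2 rose and 2 fell. Over all genes in BxPC-3, the block called 670 higher and 975 lower, and the fit without that array 917 and 1477. Limma called 0 of these splicing regulators in AsPC-1, with 1 higher at an unadjusted p under 0.05 and 0 with the replicate block. Without AsPC-1 PMA replicate 1, 1 was higher there and 2 lower.

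Of 18 other epithelial transcription factors tested, 4 rose in BxPC-3 after PMA and 1 fell. Among all genes, 2.52% were called higher there and 3.30% lower. PRDM1, a repressor that acts in terminal differentiation, rose by 3.79 ± 0.60, ZNF750, an epidermal differentiation factor, by 2.47 ± 0.37, and KLF4, a barrier factor, by 1.94 ± 0.39. SOX9 (0.79) and GATA3 (-1.51) were the other calls, named after their values were seen. In AsPC-1, PRDM1 rose by 3.93 ± 0.60 (limma adjusted p = 0.00694). With the replicate block 2 rose and 2 fell there, and without AsPC-1 PMA replicate 1, 4 rose and 6 fell. Of all 16099 genes, 449 were called higher and 455 lower in AsPC-1 with the block, and 981 and 2166 without that array. The ZNF750 response differed between the lines by 2.68 ± 0.52 (adjusted p = 0.0425), with 0 of 6 AsPC-1 arrays above the 40th percentile.

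The genes with the most similar pattern over the 12 arrays were found by the root-mean-square difference of log2 values, each gene centred on its own mean. This describes likeness and is no test. GRHL3 and OVOL1 had the same 3 nearest genes, HMGN2P46, C1orf74 and WFDC21P, at 0.84 to 0.94 from GRHL3 and 0.66 to 0.70 from OVOL1. GRHL1 was nearest to LYN (0.35), LRRC4 (0.40) and KDM7A (0.42). GRHL2 was nearest to SOX2 (0.49), SHISA3 (0.50) and IRAG2 (0.58), and ESRP1 to IRAK3 (0.32), LPAR3 (0.43) and MMP13 (0.44). SOX2 averaged 361 in untreated and 74.4 in treated BxPC-3 cells, and 3.97 and 4.46 in AsPC-1. OVOL2 varied too little over the arrays (SD 0.92, against the minimum of 1) for this search.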

How the data were processed

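The authors deposited linear signal intensity values for 54675 probe sets on the 12 arrays, made with MAS5 per the submitters' processing notes; its version is not given here. Probe sets with 1 gene symbol (41091) were kept, and each gene was represented by the probe set with the highest mean of log2(signal + 3), without further normalization. Genes above the array's 40th percentile on at least 3 arrays were tested (16099). Limma 3.58.1 (R 4.3.3) estimated the 4 group means from the 12 arrays together, with 8 residual degrees of freedom and eBayes variances that follow signal level. Adjusted p is Benjamini-Hochberg over all genes tested, two-sided, threshold 0.05, and fold changes understate dim genes. With 3 arrays a group, the smallest p of an exact permutation test is 0.1. The number of arrays limits the precision.

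The members, lists and tests were chosen with earlier results of these data known. Named genes are the members, up to 3 called genes per list and comparison with the largest changes, and the 3 nearest genes in pattern. Alternatives were other pseudocounts, scalings, filters, probe set summaries and arrays, eBayes without trend and a replicate block. Treated and untreated arrays of the same number share a passage, per the labels, which pairs them. Correlations of their deviations from the group means were 0.411, 0.206 and 0.157 for the AsPC-1 pairs, and -0.054, -0.126 and -0.059 for the BxPC-3 pairs. The fit was tested on simulated data. Plots used Python 3.11.15 with matplotlib 3.10.9.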

Additional observations from a re-analysis of the deposited data

Results flagged for a closer look

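The log2 changes of GRHL3 after PMA lay 4.86 apart in the 2 lines (BxPC-3 minus AsPC-1). It was singled out by limma's test of that difference, which is no independent support, since the rise in BxPC-3 was known when the gene was chosen. GRHL3 was flagged with all 12 arrays. It would not have been flagged without AsPC-1 untreated replicate 2, BxPC-3 untreated replicate 1 or any of BxPC-3 PMA replicates 1, 2 and 3. The difference in those fits was 4.32 to 4.95, given as a description. By passage the BxPC-3 changes were 5.70, 3.77 and 4.27. In AsPC-1 the passages changed by 0.35, -2.13 and 0.92, at signals between 3.69 and 26.2 on arrays whose 40th percentile lay between 8.18 and 10.2. Groups of 3 arrays are too small for a search for single outlying arrays.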

How the results depend on the processing

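The counts here include GRHL3 and OVOL1, which were left out of the counts above in comparisons with treated BxPC-3 arrays. For those comparisons the counts here are descriptions, and no support is drawn from their stability. In BxPC-3, 6 members were past the threshold after PMA, and 4 to 6 when 1 array was left out. In AsPC-1 the count of 1 became 0 with a pseudocount of 16, with median centring, without a filter on dim genes, with the mean of all probe sets, with eBayes without trend and with the arrays of that comparison alone. It was 0 to 2 with 1 array left out. For the difference of the responses the count of 1 became 4 with a pseudocount of 16 (GRHL1, GRHL2 and OVOL1 added), 2 with the mean of all probe sets and 2 with the replicate block (OVOL1 added), and lay between 0 and 3 with 1 array left out. Between lines it stayed at 5 after PMA and lay between 3 and 5 untreated. With 1 array left out, calls over all genes between lines were 4300 to 6542 after PMA and 4124 to 6542 untreated. The replicate block changed no other call of a member.

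The sign turned for 7 member values, of which ESRP1 in AsPC-1 and GRHL1 between untreated lines were called. The ESRP1 difference of responses was 0.024 with a pseudocount of 1, and between -0.30 and 0.17 with 1 array left out. GRHL3 in AsPC-1 ranged from -0.61 to 0.21 and between untreated lines from -0.89 to 0.14 with 1 array left out. On the second probe set GRHL1 was -0.58 in AsPC-1 and -0.30 between untreated lines, ESRP1 0.0089 in AsPC-1, and OVOL1 -0.46 between untreated lines. The cause was not tested.

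Over all genes, PMA in BxPC-3 gave 937 calls, 680 to 3535 under other settings and 325 to 2394 with 1 array left out. In AsPC-1 the 316 calls became 0 to 904 and 61 to 3147, and for the difference of responses 79 became 41 to 126 and 9 to 713. Median centring moved the median change of all genes from 0.00023 to 0.13 in BxPC-3 and from -0.10 to 0.13 in AsPC-1, and the split of calls from 405 higher and 532 lower to 510 and 443 in BxPC-3. Between untreated lines 2699 higher and 2517 lower became 2508 and 2669, and after PMA 2941 and 2449 became 2414 and 2843. Counts of list genes with the replicate block and without AsPC-1 PMA replicate 1 were added after seeing the data. Low signal limits GRHL2 and GRHL3 in AsPC-1.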
